A study of Mus musculus with 2 samples.

Results

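The genes described here encode the constitutive proteasome of mouse bone marrow multipotent progenitors (MPPs). Members were all genes whose symbol begins with Psma, Psmb, Psmc or Psmd, without the inducible subunits Psmb8, Psmb9 and Psmb10 and without pseudogene symbols ending in -ps, which gave 37 of the 27998 genes in the count table. Of these, 31 are subunits of the standard particle: 14 of the 20S core (Psma1 to Psma7 and Psmb1 to Psmb7) and 17 of the 19S regulatory cap (Psmc1 to Psmc6 and 11 Psmd genes). The other 6 are the cap assembly chaperones Psmd5, Psmd9 and Psmd10, the tissue-restricted core genes Psma8 and Psmb11, and Psmc3ip, a recombination factor that shares only the prefix. The members lie on 16 chromosomes.

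Single-cell RNA sequencing (10x Genomics, 3' end) was done on MPPs of C57BL/6 wild-type mice and of C57BL/6 Spp1-/- mice, which lack osteopontin, with 1 library per genotype. All mice had received thioglycollate, an irritant that draws leukocytes into the peritoneum, 20 hours before bone marrow was taken. MPPs were sorted as Lin-, Sca-1+, c-kit+ and CD34+ with a further gate that the labels write as Flt3L+; age, sex and the number of pooled animals are not given. Both libraries were in a single matrix, told apart only by the barcode suffix, and since no label ties a suffix to a genotype they are called library 1 and library 2, and their differences cannot be read as differences between genotypes.

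The proteasome degrades proteins that carry ubiquitin chains. Its core is a barrel of stacked rings, in which the outer alpha rings gate the entry and the inner beta rings hold the peptidase sites. The cap has a base, whose ATPases unfold the substrate and push it into the barrel, and a lid that removes the ubiquitin chain. Dividing cells need the particle to clear cyclins and other cycle regulators, and blood cells can exchange the catalytic beta subunits for the inducible ones.

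Library 1 had 3253 kept cells with 10118499 unique molecular identifiers (UMIs, each counted once per captured transcript) and library 2 had 4570 cells with 18750468 UMIs, with medians of 2830 and 3836 UMIs per cell. The libraries shared 32 barcode sequences. The 5 genes of the sort (Cd34, Ly6a, Kit, Flt3 and Cd48) summed to 1073 and 1136 UMIs per 1000000 (CPM) and all were present. Of the lists for other cells, the 2 T-cell genes matched (Trac was not) gave 0 and 1 UMI, and B-cell genes 64.4 and 71.0 CPM. Of the 4 B-cell genes, 1 was at 0 in each library, and 3 were at 0 in most of the cell classes described below. Neutrophil genes stood at 17.6 and 35.5 CPM and megakaryocyte genes at 5.73 and 5.12 CPM. Erythroid genes (Hba-a1, Hbb-bs, Hbb-bt and Alas2) stood at 101 and 48.0 CPM. Genes of antigen-presenting dendritic cells (H2-Aa, H2-Ab1, H2-Eb1, Cd74 and Siglech, all 5 detected) stood at 793 CPM in library 1 and 233 CPM in library 2. The replicate is the library, so no test between groups was possible, and every interval given is a 95% interval for counting error only.

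Transcripts of the 31 subunits made up 9712 CPM (9651 to 9773) in library 1 and 10892 CPM (10844 to 10939) in library 2. Core genes supplied 6657 and 7335 CPM of this, and cap genes 3055 and 3556 CPM. The core share of subunit UMIs was therefore 68.5% (68.3 to 68.8) in library 1 and 67.3% (67.1 to 67.6) in library 2, about 2.18 and 2.06 core UMIs per cap UMI. The median core gene stood at 408 and 460 CPM and the median cap gene at 165 and 190 CPM. In library 1, 11 of the 14 core genes were above every cap gene, and in library 2, 10 were. A 3' UMI stands for 1 transcript end whatever the length of the transcript, so these levels were compared between genes without a correction for length.

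**Figure D1:**
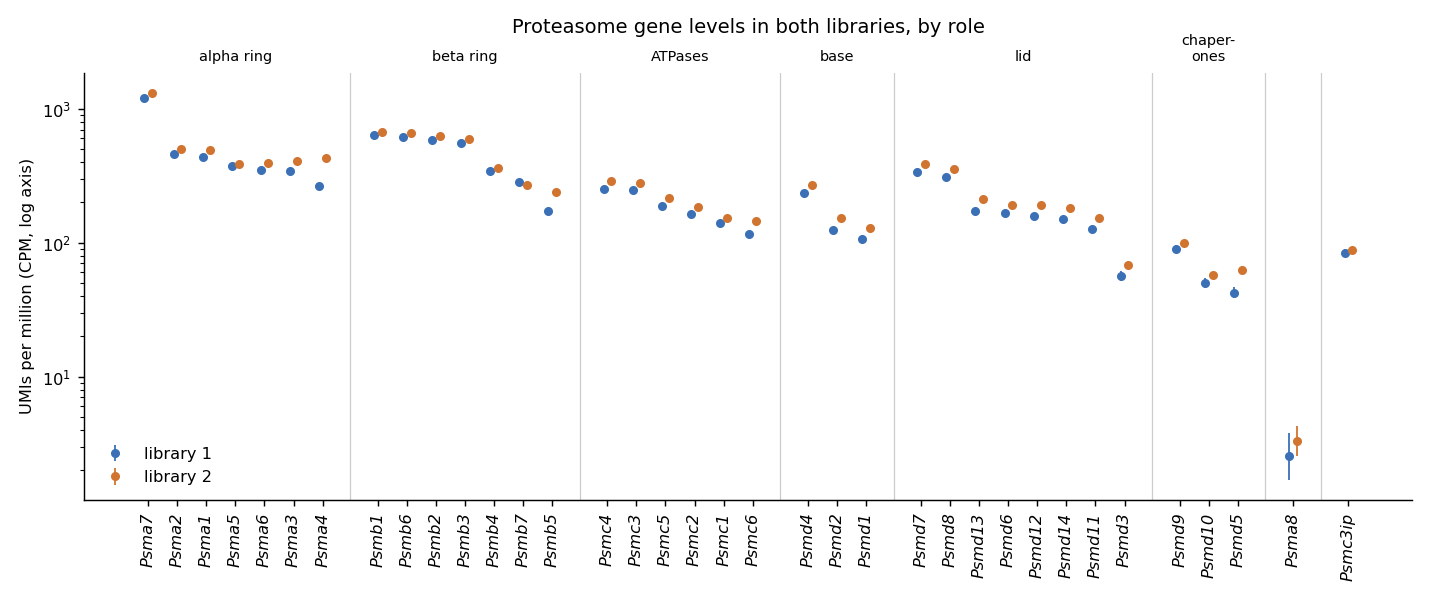
Level of each proteasome gene in library 1 (blue) and library 2 (orange), in CPM on a log axis, ordered by role; bars are exact Poisson 95% intervals and are mostly smaller than the points. Psma7 is the highest point at 1214 and 1312 CPM, most core genes lie above the cap genes, and Psma8 lies at 2.57 and 3.31 CPM; Psmb11, with no UMI, is not drawn.

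In the alpha ring, Psma7 was the most abundant member at 1214 CPM in library 1 and 1312 CPM in library 2. The lowest alpha gene was Psma4 in library 1 (266 CPM) and Psma5 in library 2 (385 CPM), while Psma4 stood at 427 CPM there. The other alpha genes lay between these ends in both libraries. Psma7 is thus 4.56 and 3.41 times the lowest gene of its ring, although each alpha protein occupies 1 place in the ring.

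In the beta ring, Psmb1 was highest at 639 and 669 CPM. The 3 catalytic genes differed: Psmb6, the caspase-like site, stood at 618 and 659 CPM, Psmb7, the trypsin-like site, at 286 and 271 CPM, and Psmb5, the chymotrypsin-like site, at 172 and 240 CPM, the lowest of the ring in both libraries. Psmb5 is the subunit that Psmb8 replaces in the inducible particle, and Psmb8 stood at 1328 CPM in both libraries. Psmb9, which replaces Psmb6, was at 307 and 317 CPM, and Psmb10, which replaces Psmb7, at 243 and 248 CPM. The inducible gene was thus above its constitutive partner for the Psmb5 site in both libraries and below it for the Psmb6 and Psmb7 sites.

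Among the ATPases of the base, Psmc4 was highest (254 and 288 CPM) and Psmc6 lowest (115 and 146 CPM). Of the other base subunits, the ubiquitin receptor Psmd4 was highest (237 and 269 CPM) and the scaffold Psmd1 lowest (107 and 130 CPM). In the lid, Psmd7, the partner of the deubiquitinase Psmd14, was highest (338 and 387 CPM), and Psmd3 was lowest of all 31 subunits (56.6 and 68.4 CPM). The base ATPases kept within a 2.20-fold and 1.98-fold range, narrower than the lid, which spanned 5.97-fold and 5.66-fold.

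The remaining members were low. The chaperones stood at 90.0 and 98.6 CPM for Psmd9, 50.3 and 56.9 CPM for Psmd10 and 42.2 and 62.7 CPM for Psmd5. Psmc3ip was at 83.5 and 88.5 CPM. Psma8, known from the germ line, had 88 UMIs in all, at 2.57 and 3.31 CPM, and Psmb11, the thymic cortex subunit, had 0 UMIs, which allows at most 0.297 and 0.160 CPM at 3 UMIs per library.

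Sequence shared with other genes bears on some of these levels, since reads that fit several places may be lost or misassigned. Over the last 300 annotated transcript bases, stretches of 50 bases were shared with another gene for 72.5% of positions in Psmd1, 57.8% in Psma5, 51.4% in Psmb3, 51.0% in Psmb5 and 34.3% in Psmd2, and for under 10% in Psmb1. The other 25 subunits shared none. Psmb7 and Psmc3 overlap an exon of a gene on the opposite strand at their 3' end (Nek6 and Slc39a13), as does Psmc3ip (Mlx), and the use of strand in the counting is unknown here. The levels of these genes are uncertain to that extent.

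Proteasome genes are known to be switched on together by the transcription factor Nfe2l1 through antioxidant response elements, so the 250 bases before each annotated start were searched for the core of this element, TGACNNNGC, on both strands. RefSeq promoters (GRCm38.p6) were matched for 30 of the 37 members and 25 of the 31 subunits. The motif was present in 4 of the 25 subunits, beside 11.5% of all 27025 genes. The 4 were Psmb5, Psmb6, Psmc6 and Psmd12. The 100 bases that hold each match are shown 5' to 3' on the strand of the gene, with the match in capitals. They are shown because they include the catalytic genes Psmb5 and Psmb6. The subunits Psmb1, Psmb2, Psmb7, Psmc3, Psmd3 and Psmd7 were not matched to a promoter, so the catalytic gene Psmb7 was not searched. A CCAAT box, on either strand, was present in 10 of 25 subunits (6 of 11 core and 4 of 14 cap genes), beside 37.5% of all genes. Both shares describe letters in a window and not binding. The windows are chr14:54617996-54618095 on the minus strand for Psmb5, chr11:70525257-70525356 on the plus strand for Psmb6, chr14:45329574-45329673 on the plus strand for Psmc6 and chr11:107479278-107479377 on the plus strand for Psmd12; the first pair ends at the annotated start and the other pair begins 250 bases before it.
Psmb5: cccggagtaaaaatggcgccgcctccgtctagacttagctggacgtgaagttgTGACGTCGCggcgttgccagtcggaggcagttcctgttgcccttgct
Psmb6: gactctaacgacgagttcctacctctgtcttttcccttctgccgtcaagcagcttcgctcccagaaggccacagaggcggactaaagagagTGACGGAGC
Psmc6: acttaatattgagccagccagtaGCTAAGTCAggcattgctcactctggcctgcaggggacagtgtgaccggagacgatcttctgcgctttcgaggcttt
Psmd12: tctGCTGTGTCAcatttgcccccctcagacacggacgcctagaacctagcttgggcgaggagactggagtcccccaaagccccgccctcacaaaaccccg

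Of the regulators themselves, Nfe2l1 was low, at 14.7 and 19.4 CPM, and its paralog Nfe2l2 stood at 49.4 and 56.6 CPM. Pomp, the chaperone of core assembly, was at 607 and 648 CPM, in the range of the beta ring genes.

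Subunit transcripts were present in every cell deep enough to be compared. After each cell with at least 2000 UMIs was thinned to 2000 (2444 cells of library 1 and 4016 of library 2, leaving out 809 and 554 shallower cells), the median cell held 19 and 21 subunit UMIs. The range was 4 to 43 in library 1 and 5 to 43 in library 2, so no cell had 0. The variance over cells was 1.69 and 1.47 times the mean, where pure counting would give a ratio near 1. Core and cap transcripts varied together: library 1 cells with the fewest core UMIs (2 to 10) held 5.38 cap UMIs on average (5.20 to 5.56) and those with the most (17 to 32) 7.19 (6.97 to 7.42). In library 2 cells with 1 to 11 and with 18 to 30 core UMIs held 6.42 (6.26 to 6.57) and 7.77 (7.60 to 7.95). The order was the same within the few-cycle, G2 and mitosis, lymphoid and granule classes described below; in G2 and mitosis cells of library 2, for example, the means were 6.47 and 7.88.

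Cells were placed in classes by their UMIs in 2000: few cycle transcripts (at most 2 of a G2 and mitosis list and at most 4 of an S phase list), S phase (at least 10 of the S phase list and under 10 of the other) and G2 and mitosis (at least 10). By lineage, cells were called lymphoid with at least 2 UMIs of Dntt (the polymerase that adds bases at antigen receptor joints) and at most 2 of the granule genes (Mpo, Ctsg, Elane, Prtn3 and Ms4a3), granule with at least 5 of these and no Dntt, mixed with at least 2 of Dntt and 4 of the granule genes, and stem with at least 1 UMI of Hlf, Mecom, Procr or Mllt3, no Dntt and at most 2 granule UMIs. These are ranges of a score and not cell types, and a cell can be in a cycle class and a lineage class. Near the edge of the G2 and mitosis class, 224 cells of library 1 and 525 of library 2 had 8 to 11 UMIs of its list. For S phase, 519 and 936 cells had 8 to 11 UMIs of its list and under 10 of the other. Exactly 2 Dntt UMIs were held by 121 and 245 lymphoid cells, and exactly 5 granule UMIs by 122 and 184 granule cells. Most stem cells, 108 of 131 and 170 of 206, had only 1 UMI of the stem list. Levels were then taken from the full counts.

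Of the cycle classes, cells with few cycle transcripts had the lowest subunit level in both libraries. It stood at 8840 CPM in 515 such cells of library 1 and 9981 CPM in 555 of library 2. The level was 10532 CPM in 297 S phase cells and 10455 CPM in 286 G2 and mitosis cells of library 1, and 11109 and 11144 CPM in 679 and 962 cells of library 2. In log2 terms, S phase over few-cycle cells was 0.25 (0.22 to 0.29) in library 1 and 0.15 (0.13 to 0.18) in library 2. G2 and mitosis over few-cycle cells was 0.24 (0.21 to 0.28) and 0.16 (0.13 to 0.18). Both comparisons use the same few-cycle cells. Of the 31 subunits, 23 had their lowest level in the few-cycle class in both libraries, and none had its highest there in both. The share of all genes was not computed for these counts.

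**Figure D2:**
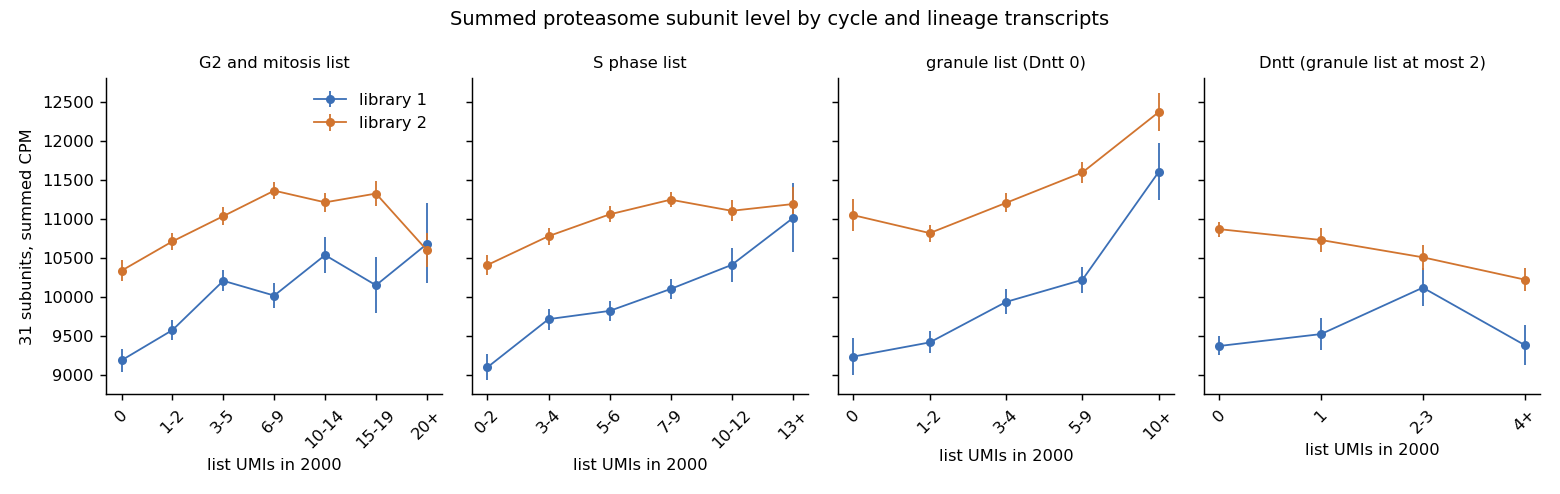
Summed level of the 31 subunits in CPM for cells binned by UMIs in 2000 of the G2 and mitosis list, the S phase list, the granule list and Dntt, for library 1 (blue) and library 2 (orange), with Poisson 95% intervals; the vertical axis does not start at 0. Library 1 goes from 9188 CPM with no G2 and mitosis UMI to 10676 CPM with 20 or more, library 2 goes from 10336 CPM to 11360 CPM with 6 to 9 UMIs and stands at 10599 CPM in the last bin, and both libraries are highest in the last granule bin, at 11600 and 12365 CPM.

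The difference between cycle classes was small for each gene and shared by many. In G2 and mitosis over few-cycle cells, the median subunit differed by 0.26 in library 1 and 0.17 in library 2 (log2). The median was 0.034 and 0.033 for all genes with at least 50 UMIs. It was 0.078 and 0.061 for genes with at least 1000 UMIs, as all 31 subunits have. The log2 ratio was above 0 in both libraries for 24 of 31 subunits, and for 30 in library 1 and 24 in library 2. The shares above 0 were 53.0% and 52.6% for all genes, and 60.0% and 57.4% for genes with at least 1000 UMIs. A gene is called past the threshold here where its log2 ratio is at least 0.32 (25% higher, or 20% lower) in the same direction in both libraries. Only 3 of 31 subunits were past it on the higher side and none on the lower, beside 13.4% and 12% of all 10101 genes tested, so the share of subunits was not above the background. The spread of the subunits' log2 ratios (SD 0.15 and 0.17) was also narrower than that of the 3271 genes with at least 1000 UMIs (0.58 and 0.63), which include the cycle genes that set the classes. The interquartile ranges lay closer together, at 0.23 and 0.26 for the subunits and 0.41 and 0.42 for those genes. The sets were not matched for UMIs (the lowest subunit has 1856), and the part of counting error in these spreads was not tested.

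The 3 genes were the beta subunit Psmb6 (GRCm38 chr11:70525367-70527858, plus strand), the ATPase Psmc1 (chr12:100110154-100123405, plus strand) and the lid subunit Psmd13 (chr7:140881968-140898643, plus strand). Psmb6 went from 546 CPM in few-cycle cells to 692 CPM in G2 and mitosis cells of library 1 and from 565 to 722 CPM in library 2, a log2 ratio of 0.34 and 0.35. Psmc1 went from 121 to 174 CPM and from 119 to 170 CPM (0.52 and 0.51), and Psmd13 from 148 to 200 CPM and from 161 to 226 CPM (0.44 and 0.49). All 6 intervals lay above 0. At the other end, the lid subunit Psmd12 did not differ, at 137 and 137 CPM in library 1 and 183 and 180 CPM in library 2.

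The beta ring and the alpha ring differed in G2 and mitosis cells, a comparison chosen after the values were seen. The summed beta ring was higher than in few-cycle cells by 0.30 (0.24 to 0.36) in library 1 and 0.23 (0.18 to 0.27) in library 2. The alpha ring was higher by 0.18 (0.12 to 0.24) and 0.098 (0.057 to 0.14). All 7 beta genes were above 0 in both libraries, and for 6 of them (all but Psmb1) both intervals lay above 0. For the alpha ring this held for 2 of 7, Psma5 (0.44 and 0.27) and Psma7 (0.17 and 0.17), while Psma4 (0.15 and -0.12) and Psma1 (0.15 and -0.07) had opposite signs in the libraries.

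The ratio of beta to alpha UMIs was 0.916 (0.880 to 0.954) in few-cycle cells and 0.999 (0.958 to 1.04) in G2 and mitosis cells of library 1, and 0.853 (0.822 to 0.885) and 0.932 (0.914 to 0.951) in library 2. The log2 ratio of these ratios was 0.13 (0.041 to 0.21) and 0.13 (0.068 to 0.19). This quantity does not depend on the total a cell is scaled to. It was 0.17 and 0.19 in cells of 3000 to 6000 UMIs, and 0.17 and 0.19 without the genes that share sequence. Within lymphoid cells it was 0.20 and 0.11, with intervals that include 0. Within granule cells the beta to alpha ratio was 0.892 in few-cycle and 0.985 in G2 and mitosis cells of library 1. In library 2 these were 0.929 and 0.943, so little shift was seen there. The granule intervals of the classes overlapped in both libraries. Stem cells had the higher ratio in G2 and mitosis in both libraries. The shift within granule and stem cells was not tested further. For S phase over few-cycle cells the log2 ratio of the ratios was -0.024 (-0.11 to 0.065) and -0.042 (-0.11 to 0.024), so no shift of the rings was detectable there. Of the 11 subunits highest in G2 and mitosis among the cycle classes in both libraries, 5 were beta genes and 1 an alpha gene. Of the 11 highest in S phase in both, 5 were alpha genes and none a beta gene. These counts use the same class sums as the ratios above and are not separate support. The share of all genes was not computed for them.

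**Figure D3:**
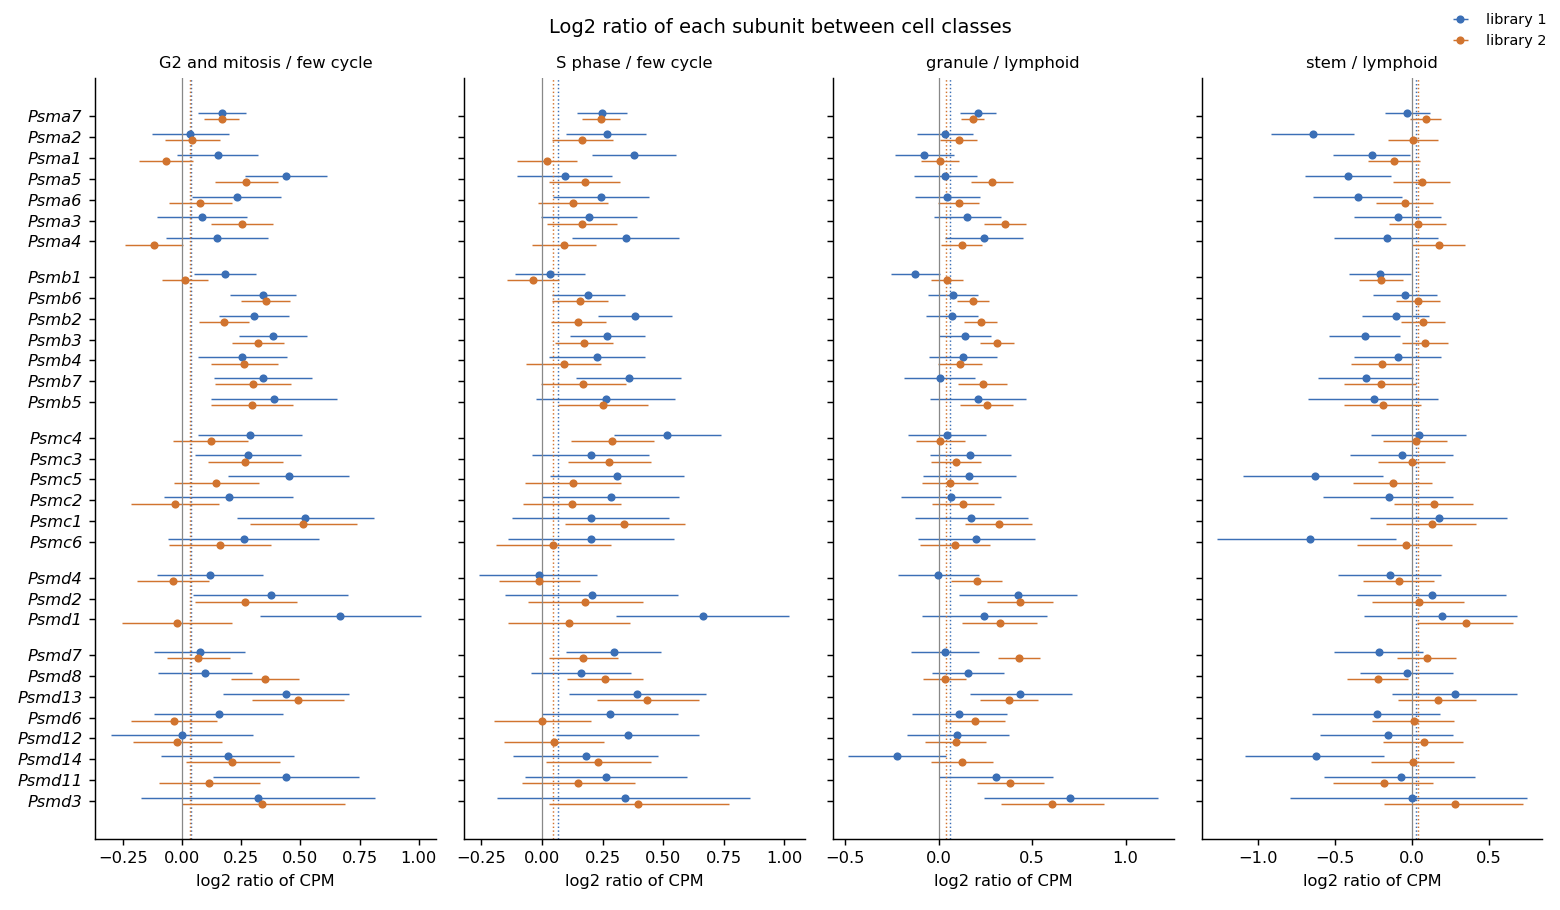
Log2 ratio of each of the 31 subunits for G2 and mitosis over few-cycle cells, S phase over few-cycle cells, granule over lymphoid cells and stem over lymphoid cells, for library 1 (blue) and library 2 (orange), with exact conditional Poisson 95% intervals; dotted lines are the medians of all genes tested. The beta genes lie right of 0 in the first panel, Psmd3 is farthest right in the third at 0.70 and 0.61, and most library 1 points lie left of 0 in the last.

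In S phase over few-cycle cells, the median subunit differed by 0.27 and 0.16, beside 0.068 and 0.044 for all genes. Genes with at least 1000 UMIs had medians of 0.12 and 0.097. Above 0 were 29 of 31 subunits in both libraries, 30 in library 1 and 29 in library 2. The shares above 0 were 55.2% and 53.4% for all genes, and 65.3% and 60.7% for genes with at least 1000 UMIs. Past the threshold were 2 of 31, both higher, beside 14.2% of all genes higher and 10.8% lower, again a share not above the background. They were Psmd13 (194 CPM in S phase and 148 in few-cycle cells of library 1, 218 and 161 in library 2) and Psmd3 (58.3 and 46.0 CPM, 69.6 and 52.9 CPM). The interval of Psmd3 in library 1 included 0 (-0.18 to 0.86). Psma7 was higher by 0.25 and 0.24 with both intervals above 0, and the ATPase Psmc4 by 0.52 and 0.29.

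The member farthest from the others in S phase was Psmc3ip, which acts in homologous recombination and is not a subunit. It stood at 116 CPM in S phase cells, 68.4 CPM in few-cycle cells and 58.3 CPM in G2 and mitosis cells of library 1. In library 2 the levels were 122, 67.4 and 69.8 CPM. S phase over few-cycle cells gave 0.77 (0.38 to 1.16) and 0.86 (0.55 to 1.18), whereas G2 and mitosis over few-cycle cells gave -0.23 (-0.69 to 0.22) and 0.05 (-0.26 to 0.37). No subunit had an S phase ratio this high in both libraries. Of the chaperones, Psmd9 was higher in S phase (0.32 and 0.38) and Psmd10 was not (-0.02 and -0.14), and for both of them at least 1 interval included 0.

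Depth, ribosomal content and dendritic genes moved with the cycle classes. The median cell had 2648 UMIs in the few-cycle class and 3919 in G2 and mitosis in library 1, and 2714 and 5179 in library 2. Ribosomal protein genes took 41.8% and 37.1% of UMIs in these classes of library 1 and 38.4% and 34.0% in library 2. The dendritic list stood at 1227 and 271 CPM in library 1 and 272 and 195 CPM in library 2. When cells with at least 10 dendritic UMIs in 2000 were left out, G2 and mitosis over few-cycle cells was 0.23 in library 1 and 0.16 in library 2. In cells of 3000 to 6000 UMIs only, the value was 0.31 in library 1 but 0.0048 (-0.032 to 0.042) in library 2, and S phase over few-cycle cells was 0.32 and 0.058. With ribosomal protein and mitochondrial UMIs left out of the total, G2 and mitosis over few-cycle cells was 0.13 and 0.058 and S phase over few-cycle cells 0.12 and 0.041. That scaling moved the median of all genes to -0.080 and -0.067 for G2 and mitosis. The subunits' median was 0.23 and 0.13 above that median under both scalings. A change of total shifts every gene's log2 ratio equally and cannot alter this gap. The scaling also moved the higher genes from 52.7% to 37.3% of all those past the threshold in G2 and mitosis. In S phase the change was from 56.8% to 38.6%. Under that scaling, 2 of 31 subunits were higher past the threshold in G2 and mitosis, beside 9.44% of all genes. In S phase 0 of 31 were, beside 9.55%. The part of these features in the result was not otherwise tested.

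Along lineage, subunit transcripts were higher in the granule class than in the lymphoid class of both libraries. They stood at 10488 CPM in 388 granule cells and 9787 CPM in 394 lymphoid cells of library 1, and at 11784 CPM in 547 and 10361 CPM in 868 cells of library 2. The log2 ratio was 0.10 (0.066 to 0.13) and 0.19 (0.16 to 0.21), and with floors of 10 granule UMIs and 4 Dntt UMIs it was 0.31 and 0.27. The small mixed class stood at 10584 CPM in 73 cells of library 1, above the granule class, and at 11014 CPM in 118 cells of library 2, below it. Among lymphoid, granule and stem cells, 22 of 31 subunits were highest in the granule class in both libraries. None was highest in lymphoid or in stem cells in both, and the share of all genes was not computed for these counts. The median subunit differed by 0.13 and 0.18, beside 0.060 and 0.038 for all genes. Genes with at least 1000 UMIs had medians of 0.059 and 0.069. Above 0 were 27 of 31 subunits in both libraries, 27 in library 1 and 31 in library 2. The shares above 0 were 55.4% and 53.5% for all genes, and 58.0% and 59.9% for genes with at least 1000 UMIs.

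Past the threshold were 3 of 31 subunits, all higher, beside 12.5% of all genes higher and 10.6% lower, a share near the background. All 3 are non-ATPase cap genes. Psmd3 (GRCm38 chr11:98682554-98695979, plus strand) had 76.9 CPM in granule cells and 47.3 CPM in lymphoid cells of library 1, and 86.6 and 56.8 CPM in library 2, a log2 ratio of 0.70 (0.24 to 1.17) and 0.61 (0.34 to 0.88). Psmd2, a scaffold of the base, had 143 and 107 CPM, and 191 and 141 CPM (0.42 and 0.43). Psmd13 had 191 and 141 CPM, and 240 and 185 CPM (0.44 and 0.37). The largest alpha gene, Psma7, was higher in granule cells by 0.21 and 0.18.

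In library 2 the lid was higher in granule cells by 0.25 (0.20 to 0.30) and the ATPases by 0.10 (0.040 to 0.16), and the log2 ratio of all non-ATPase cap UMIs to ATPase UMIs differed by 0.16 (0.082 to 0.24). In library 1 that difference was 0.017 (-0.11 to 0.14), so it was not detectable there. Of the inducible genes, Psmb8 was lower in granule cells, at 1389 CPM in granule and 1496 CPM in lymphoid cells of library 1 and 1335 and 1422 CPM in library 2. Psmb9 was lower too (-0.37 and -0.21), whereas Psmb10 was at -0.01 (-0.22 to 0.20) in library 1 and higher in library 2 (0.26, 0.12 to 0.41). The summed core genes of the constitutive particle gave 0.082 and 0.18.

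Granule cells were also deeper and poorer in ribosomal transcripts than lymphoid cells. Their median depth was 4063 and 2827 UMIs in library 1 and 5524 and 3695 in library 2, and the ribosomal share 37.0% and 39.3%, and 32.9% and 35.9%. Neutrophil genes (S100a8, S100a9, Ngp and Camp, all 4 detected) stood at 68.9 and 189 CPM in the granule classes of libraries 1 and 2, and at 4.15 and 2.69 CPM in the lymphoid classes. The erythroid list stood at 101 and 33.6 CPM in the granule classes and 16.6 and 17.9 CPM in the lymphoid classes. In cells of 3000 to 6000 UMIs the ratio in library 2 was 0.11 (0.075 to 0.14), and without ribosomal protein and mitochondrial UMIs it was 0.044 and 0.12. Under the latter scaling the higher genes went from 54.1% to 42.9% of those past the threshold. Of the subunits, 2 of 31 (Psmd3 and Psmd2) remained past it, beside 9.66% of all genes that were higher. The part of depth and of neutrophil and erythroid RNA was not otherwise tested.

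Stem and lymphoid cells gave different pictures in the libraries. In library 1 the subunits stood at 8661 CPM in 131 stem cells, below the lymphoid class by 0.18 (log2 ratio -0.18, -0.23 to -0.12). In library 2 they stood at 10382 CPM in 206 stem cells and the ratio was 0.0029 (-0.032 to 0.038). The difference between the libraries was not tested. No subunit was past the threshold, beside 13.3% of all genes higher and 10.2% lower. The 3 highest mean ratios were those of Psmd1 (0.19 and 0.35), Psmd13 (0.28 and 0.17) and Psmc1 (0.18 and 0.13), and the lowest those of Psmc5 (-0.63 and -0.13), Psmc6 (-0.67 and -0.04) and Psma2 (-0.64 and 0.01). Of the inducible genes, Psmb9 was past the threshold, lower in stem cells (-0.48 and -0.33). The dendritic list stood at 737 CPM in the stem class of library 1 and 499 CPM in that of library 2, beside 314 and 240 CPM in the lymphoid classes, and without cells rich in its genes the stem ratio was -0.17 and 0.0033. The erythroid list stood at 171 and 150 CPM in the stem classes, with 2 and 3 of its 4 genes at 0, and its part in the result was not tested.

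The balance of core and cap changed little between classes. The core share ran from 68.1% in mixed cells to 69.4% in lymphoid cells of library 1, and from 67.1% in granule cells to 67.7% in few-cycle cells of library 2. G2 and mitosis over few-cycle cells differed in the log2 ratio of core to cap UMIs by -0.015 (-0.090 to 0.060) in library 1 and -0.0012 (-0.054 to 0.052) in library 2. Granule over lymphoid cells differed by -0.056 (-0.13 to 0.016) and -0.028 (-0.073 to 0.017). The intervals of all 4 class comparisons included 0 in both libraries, and the widest of them reached -0.19, in the stem cells of library 1.

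**Figure D4:**
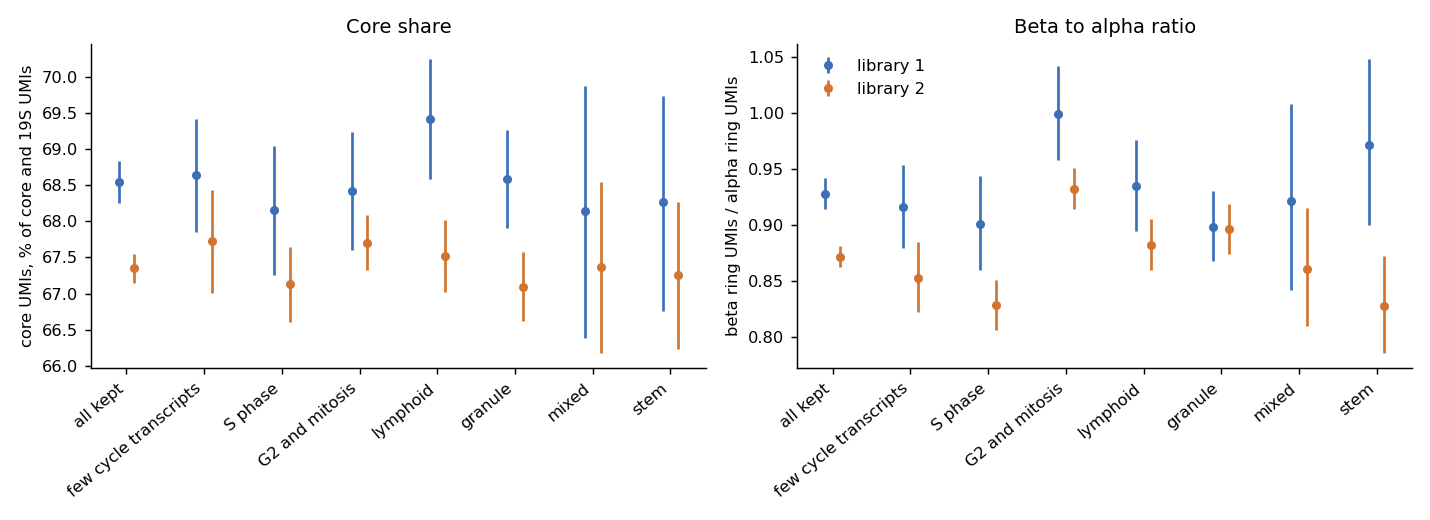
Left, core UMIs as a percentage of core and cap UMIs in each cell class with exact binomial 95% intervals; right, beta ring UMIs divided by alpha ring UMIs with normal-approximation 95% intervals; library 1 is blue and library 2 orange, and neither vertical axis starts at 0. The core share of every library 1 class lies above that of the same library 2 class, and the beta to alpha ratio is highest in the G2 and mitosis class of both libraries, at 0.999 and 0.932.

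Between the libraries, the subunits together were 0.17 (0.15 to 0.18) higher in library 2 on the log2 scale. The median was 0.11 for all genes and 0.14 for genes with at least 1000 UMIs. Within classes the ratio of the summed subunits was smaller in S phase (0.077), G2 and mitosis (0.092), lymphoid (0.082) and mixed cells (0.058, -0.0073 to 0.12). It was close to 0.17 in few-cycle (0.18) and granule cells (0.17), and larger in stem cells (0.26). Of the 31 genes, 29 had an interval above 0, Psma5 had one that included 0 and Psmb7 was lower (-0.08, -0.15 to -0.01). The ratio itself was above 0 for 30 of 31 subunits, beside 68.2% of all genes and 78.0% of genes with at least 1000 UMIs. Cap genes were higher by 0.22 and core genes by 0.14, so the log2 ratio of core to cap UMIs was lower by 0.079 (-0.10 to -0.056). All 17 cap genes lay above the median of all genes, against 7 of 14 core genes. With ribosomal protein and mitochondrial UMIs left out of the total, the subunits were 0.071 higher and the median of all genes was 0.015.

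With the same log2 ratio of 0.32 as threshold, 3 of 31 subunits were higher in library 2 and none lower, beside 17.6% and 7.5% of all genes. Of genes with at least 1000 UMIs, as all 31 subunits have, 13.8% were higher, so the subunits' count was near the background. The 3 higher subunits were Psma4, Psmb5 and Psmc6. Psma4 (GRCm38 chr9:54950790-54958030, plus strand) went from 266 to 427 CPM, a log2 ratio of 0.68 (0.62 to 0.75), and moved from place 15 to place 8 in the order of the subunits. It was higher in library 2 in every class, from 0.54 in mixed to 1.01 in stem cells, with all 7 intervals above 0. No other alpha gene exceeded 0.24 (Psma3). Psmb5 went from 172 to 240 CPM (0.48, 0.40 to 0.56) and Psmc6 from 115 to 146 CPM (0.34, 0.24 to 0.44). The chaperone Psmd5 was 0.57 (0.41 to 0.73) higher, at 42.2 and 62.7 CPM. Psma4 has no shared 3' sequence, whereas 51.0% of that of Psmb5 is shared. Under the other scaling 2 of 31, Psma4 and Psmb5, were past the threshold, beside 10.9% of all genes that were higher. The higher genes went from 70.1% to 48.9% of all those past it.

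**Figure D5:**
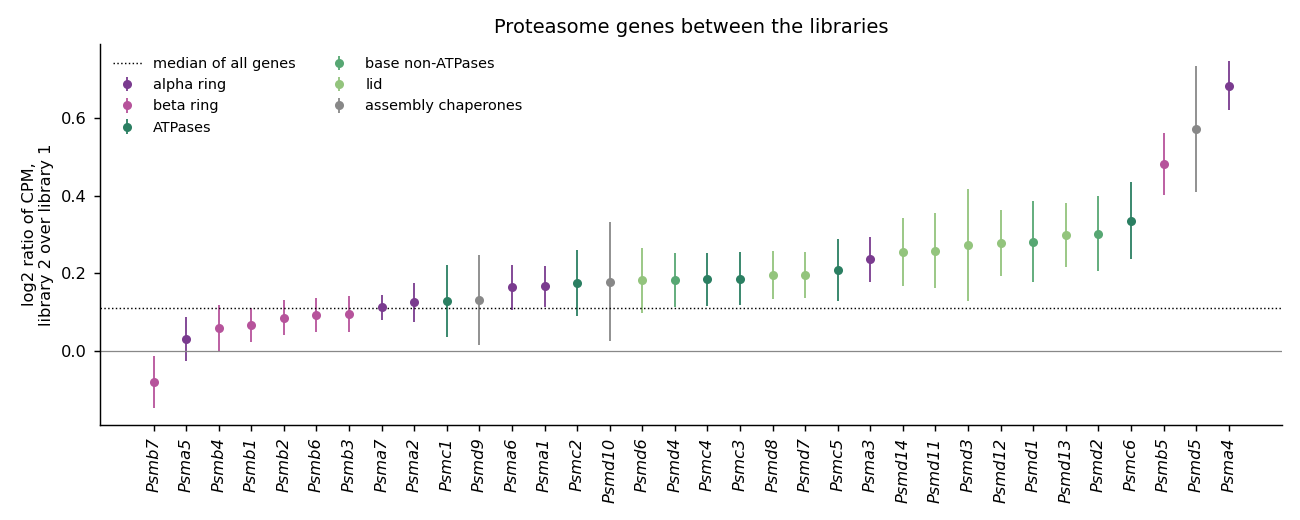
Log2 ratio of library 2 over library 1 for each subunit and assembly chaperone, ordered by value and coloured by role, with exact conditional Poisson 95% intervals; the dotted line is the median of all genes tested, 0.11. Psma4 at 0.68, Psmd5 at 0.57 and Psmb5 at 0.48 stand above the rest, the cap genes lie above the line and most beta genes below it.

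Among 35 other genes of the pathway, 5 were past the threshold higher in library 2 and none lower, beside the 17.6% and 7.5% of all genes. Adrm1, a ubiquitin receptor of the base outside the prefix rule, went from 52.7 to 98.6 CPM (0.90), and 83.7% of its 3' sequence is shared with another gene. The other 4 were Psme3, the nuclear activator cap, at 67.9 and 85.7 CPM, the inhibitor Psmf1 at 29.2 and 37.0 CPM, Nfe2l1 (0.39) and Ngly1 (0.55), the glycanase that activates Nfe2l1. Without ribosomal protein and mitochondrial UMIs in the total, 2 were higher (Adrm1 and Ngly1) and Shfm1, a lid subunit also known as Sem1, was lower. Under that scaling 10.9% of all genes were higher and 11.4% lower.

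In G2 and mitosis over few-cycle cells 1 of 35 was past the threshold, beside 13.4% of all genes, the polyubiquitin gene Ubb (0.50 and 0.34). Of the 3' sequence of Ubb, 86.45% is shared with other genes. Under the other scaling Ubb was not past the threshold and Rps27a, a ubiquitin and ribosomal fusion gene with 86.85% shared, was lower. Of all genes, 9.44% were then higher and 15.9% lower. In S phase 4 of 35 were, beside 14.2%: the deubiquitinase Uchl5 (0.86 and 0.56), the shuttle factors Ubqln1 (0.77 and 0.40) and Ubqln2 (0.97 and 0.40) and the protease Ddi2 (0.50 and 0.32). Both intervals lay above 0 for Uchl5 and included 0 for the other 3. Under the other scaling only Uchl5 was higher, beside 9.55% of all genes, and Rps27a was lower, beside 15.2%.

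In granule over lymphoid cells 5 of 35 were higher, beside 12.5% of all genes: the core assembly factor Psmg3 (0.38 and 0.56), Psme3 (0.39 and 0.64), Uchl5 (0.39 and 0.33), Ubqln1 (0.35 and 0.35) and Nploc4 (0.46 and 0.47). Ngly1 was lower (-0.72 and -0.33), beside 10.6%. The intervals of Ubqln1, Nploc4 and Ngly1 included 0 in both libraries. Under the other scaling Psmg3, Psme3 and Nploc4 were higher, beside 9.66% of all genes, and Ngly1 was lower, beside 12.9%. In stem over lymphoid cells 1 of 35 was higher, Ubqln4 (0.80 and 0.65), beside 13.3%, and 3 were lower, Psmb9, Ube3c (-0.99 and -0.60) and Ufd1l (-0.34 and -0.62), beside 10.2%. Both intervals lay below 0 for Psmb9, while those of Ubqln4 and Ube3c included 0 in both libraries and that of Ufd1l in library 1. Ufd1l was not past the threshold under the other scaling, where 13.1% of all genes were higher and 10.1% lower.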

How the data were processed

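The deposited file is a gene by barcode matrix of UMI counts from both samples, made by the authors with Cell Ranger 1.1 on mm10, per the submitters' processing notes; the values are raw counts. Strand, multi-mapped reads and the removal of doublets are not given in the sources used here, and no doublet caller was run. Barcodes with at least 500 genes and under 10% mitochondrial UMIs were kept, which removed 59 and 2. Levels are summed UMIs per 1000000 UMIs of the same cells. Cells with at least 2000 UMIs were thinned once to 2000 with a fixed seed to set classes. Planned floors gave under 100 stem and mixed cells in a library. The upper quartile replaced them as planned for the mixed class, and for the stem list, whose upper quartile was 0, a floor of 1 UMI was used.

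Intervals are 95%: exact Poisson for levels, exact conditional Poisson for ratios, exact Clopper-Pearson for the core share and a normal approximation for ratios of 2 ratios. All cover counting error only, and the number of UMIs per class sets their width. The threshold was a log2 ratio of 0.32 in the same direction in both libraries, among genes with at least 50 UMIs; 36 of the 37 members had these, and all 31 subunits. Genes named are the highest and lowest of each role, the catalytic and non-subunit members, those past the threshold and, where none was, the 3 highest and 3 lowest means. Others, named for contrast, were chosen after their values were seen. Members and lists were chosen with earlier results of these data known. Gene positions, 3' sequence shared and strand overlaps came from GENCODE annotation of GRCm38. Python 3.11.15, numpy 2.4.6, scipy 1.17.1, pandas 2.3.3 and matplotlib 3.10.9 were used, and the interval code was tested on simulated counts. Alternatives were another filter on barcodes, scaling, depth window, member set and class floor.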

Additional observations from a re-analysis of the deposited data

Results flagged for a closer look

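Barcodes that the filter removed also held subunit transcripts. The 59 removed barcodes of library 1 carried 353 subunit UMIs of 48394, or 7294 CPM (6553 to 8096), below the 9712 CPM of the kept cells. The 2 removed barcodes of library 2 carried 17 of 2201 UMIs, or 7724 CPM (4499 to 12366), an interval that includes the 10892 CPM of its kept cells. These barcodes enter no comparison.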

How the results depend on the processing

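No alternative reversed a value whose interval excluded 0. Floors of 200 and 1000 UMIs per gene could not change the counts of subunits past the threshold, since every subunit has more UMIs; the background under them was 3.42% to 16.1% of all genes. Of 108 alternative values of the subunit level, 70 lay within the counting interval. Of 108 of the core to cap ratio, 101 did. These 101 include the scaling without ribosomal protein and mitochondrial UMIs, which cannot change that ratio because the total cancels. The values outside the interval follow in log2 units, with the cause not tested. For library 2 over library 1 (0.17), the stricter barcode filter gave 0.15, scaling without ribosomal protein and mitochondrial UMIs 0.071, the mean over cells 0.14, thinned counts 0.13, cells of 3000 to 6000 UMIs 0.12, without the 5% deepest cells 0.14 and without Psma4 0.15. Within classes it was 0.077 (S phase), 0.092 (G2 and mitosis), 0.082 (lymphoid), 0.058 (mixed) and 0.26 (stem). For G2 and mitosis over few-cycle cells, in libraries 1 and 2, that scaling gave 0.13 and 0.058, the depth window 0.31 and 0.0048, and lymphoid cells alone 0.20 and 0.11; granule cells gave 0.18 in library 1, and the stricter filter 0.13 and a floor of 20 UMIs 0.087 in library 2. For S phase, the scaling gave 0.12 and 0.041, the window 0.32 and 0.058, a floor of 5 UMIs 0.18 in library 1 and the stricter filter 0.13 in library 2; a floor of 20 left no cells in library 1. For granule over lymphoid cells, the scaling gave 0.044 and 0.12, floors of 10 and 4 UMIs 0.31 and 0.27, and few-cycle cells 0.16 and 0.16. In library 2 thinned counts gave 0.16, the window 0.11 and leaving out the deepest cells 0.15. For stem over lymphoid cells, a floor of 2 UMIs, which left 23 and 36 stem cells, gave -0.28 and -0.038. The core to cap log2 ratio between the libraries (-0.079) was -0.11 without Psma4, and -0.047 (G2 and mitosis), -0.13 (lymphoid) and -0.051 (mixed) within classes. It was 0.023 for granule cells of library 1 with thinned counts, and in library 2 0.094 for S phase with a floor of 20 UMIs and 0.094 for stem cells among few-cycle cells. No paired analysis was possible because each genotype has 1 library and no suffix is tied to a genotype. Leaving out a library leaves nothing to compare, so none was left out.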
